A study of Rattus rattus with 18 samples.

Results

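The miR-23a/27a/24-2 and miR-23b/27b/24-1 clusters are 2 related groups of microRNA genes, and their mature products were followed here in the rat brain after transient middle cerebral artery occlusion (tMCAO). The members were taken by name from the array: rno-miR-23a-3p, rno-miR-23b-3p, rno-miR-27a-3p, rno-miR-27b-3p, rno-miR-24-3p, rno-miR-24-1-5p and rno-miR-24-2-5p (written below without the species prefix), 7 of the 761 rat miRNA probes. All 7 were detected on at least 3 arrays and are among the 532 probes tested. Of the 9 Sprague-Dawley rats, 3 had sham surgery, 3 had tMCAO and 3 carry the label remote limb postconditioning (PostC). Every rat is represented by a core array and a peri array, which makes 18. A filament pushed up to the artery blocks it during tMCAO, and blood returns once the filament is pulled back. The deposited description does not say whether the PostC rats also underwent tMCAO, and which of the study's times after reperfusion applies to the arrays is not given in the sources used here. The labels and the methods assign core and peri to cortex and striatum in opposite ways, so the regions are named without a tissue.

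The 3 miRNAs of each cluster are cut from a single primary transcript, so a change in transcription alone would reach all of them, whereas processing and decay act on each miRNA separately. miR-24-3p is made from both clusters and its mature form does not tell them apart. The 5p arms miR-24-1-5p and miR-24-2-5p come from the other strand of the hairpin, and each marks 1 of the clusters. Both clusters are best known from endothelial cells, where miR-23 and miR-27 act in blood vessel growth, and miR-27 and miR-24 are also studied for their control of lipid metabolism, the cell cycle and cell death.

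The target sequences of the 7 probes, as the array files list them, are given because the members pair up by sequence across the clusters and not within them. The capitals mark the seed, bases 2 to 8 counted from the 5′ end, through which a miRNA recognises its target messages.
miR-23a-3p: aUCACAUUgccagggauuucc
miR-23b-3p: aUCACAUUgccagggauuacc
miR-27a-3p: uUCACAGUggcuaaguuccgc
miR-27b-3p: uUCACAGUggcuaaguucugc
miR-24-3p: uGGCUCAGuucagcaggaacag
miR-24-1-5p: gUGCCUACugagcugauaucag
miR-24-2-5p: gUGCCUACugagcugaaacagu

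miR-23a-3p and miR-23b-3p differ at 1 base, U19A, counted from the 5′ end with the base of miR-23a-3p first. miR-27a-3p and miR-27b-3p also differ at 1 base, C19U, with the base of miR-27a-3p first. Each of these seeds is held by 2 probes of the array, the a and the b form, and the seed of miR-24-3p by 1 probe. How far the probes of such a pair share their signal was not tested, so their values are not independent measurements. The 2 cluster mates miR-23a-3p and miR-27a-3p, by comparison, differ at 10 positions.

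The 5 3p members were detected on all 18 arrays, and every array was single-colour (Cy5). The arrays differed in background: the median empty spot lay between 36.7 and 278 intensity units and the number of probes detected between 188 and 605. The tMCAO peri arrays detected 189 to 230 probes and the sham peri arrays 318 to 471, and the part of this gap in the results below was not tested. The 6 neuronal miRNAs of the marker list, among them miR-124-3p, were detected on all 9 core arrays. Of their 18 probe-array pairs, 17 were detected in the tMCAO peri group, 17 in the PostC peri group and 18 in the sham peri group. In bulk tissue, fewer cells of a type and less RNA per cell cannot be told apart.

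In the core, the a and b forms of miR-23 had higher signals after tMCAO than after sham surgery, and the a and b forms of miR-27 had lower ones, while the values of miR-24-3p overlapped. For each of the 4 miR-23 and miR-27 forms, the 3 tMCAO rats and the 3 sham-operated rats did not overlap. None of the 7 members passed the adjusted threshold of 0.05 in limma (Benjamini-Hochberg over 532 probes), at which 3.38% of all probes were called in core. An unadjusted p under 0.05 was reached by 3 members in limma, miR-23a-3p, miR-23b-3p and miR-27b-3p, and by 4 in the methods' t-test, where 21.8% of all probes reached it in limma and 137 of 532 in the methods' t-test. Of the 7 members, 5 did not overlap between the groups, where 41% of all probes did not.

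miR-23a-3p had normalized log2 intensities of 12.93, 12.77 and 13.52 in the sham core and of 13.68, 13.86 and 14.00 in the tMCAO core. The lowest tMCAO rat lay above the highest sham rat. The log2 fold change was 0.77 (SE 0.25, 95% interval 0.22 to 1.32, adjusted p = 0.125 in limma), a 1.71-fold higher signal. miR-23b-3p, its near copy in the other cluster, gave 13.22, 13.03 and 13.75 in sham and 13.89, 14.08 and 14.04 in tMCAO, again without overlap. Its log2 fold change was 0.67 (SE 0.22, 95% interval 0.17 to 1.16, adjusted p = 0.135 in limma). Both values depended on the background correction: with plain subtraction they were 0.46 for miR-23a-3p and 0.30 for miR-23b-3p (adjusted p = 0.579 and 0.734 in limma), and the groups overlapped for both.

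miR-27a-3p, from the same transcript as miR-23a-3p, measured 11.56, 12.57 and 11.49 in the sham core and 10.18, 10.46 and 11.07 in the tMCAO core. Here every tMCAO rat lay below every sham rat. The log2 fold change was -1.31 (SE 0.68, 95% interval -2.81 to 0.20, adjusted p = 0.276 in limma), a 2.47-fold lower signal. miR-27b-3p, the mate of miR-23b-3p, had 12.88, 12.93 and 12.69 in sham and 11.78, 11.61 and 12.37 in tMCAO. The sham rats were close together and the tMCAO rats all lay under them, with a log2 fold change of -0.91 (SE 0.33, 95% interval -1.65 to -0.17, adjusted p = 0.152 in limma). miR-27b-3p is among the 15 miRNAs that the study picked from these arrays, so its direction is not independent evidence.

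miR-24-3p, the product shared by both clusters, had 13.42, 13.31 and 13.28 in the sham core and 12.98, 13.28 and 13.53 in the tMCAO core. The tMCAO rats spread to both sides of the sham rats. The log2 fold change was -0.070 (SE 0.21, 95% interval -0.53 to 0.39, adjusted p = 0.851 in limma), and its sign changed with the scaling of the arrays.

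**Figure D1:**
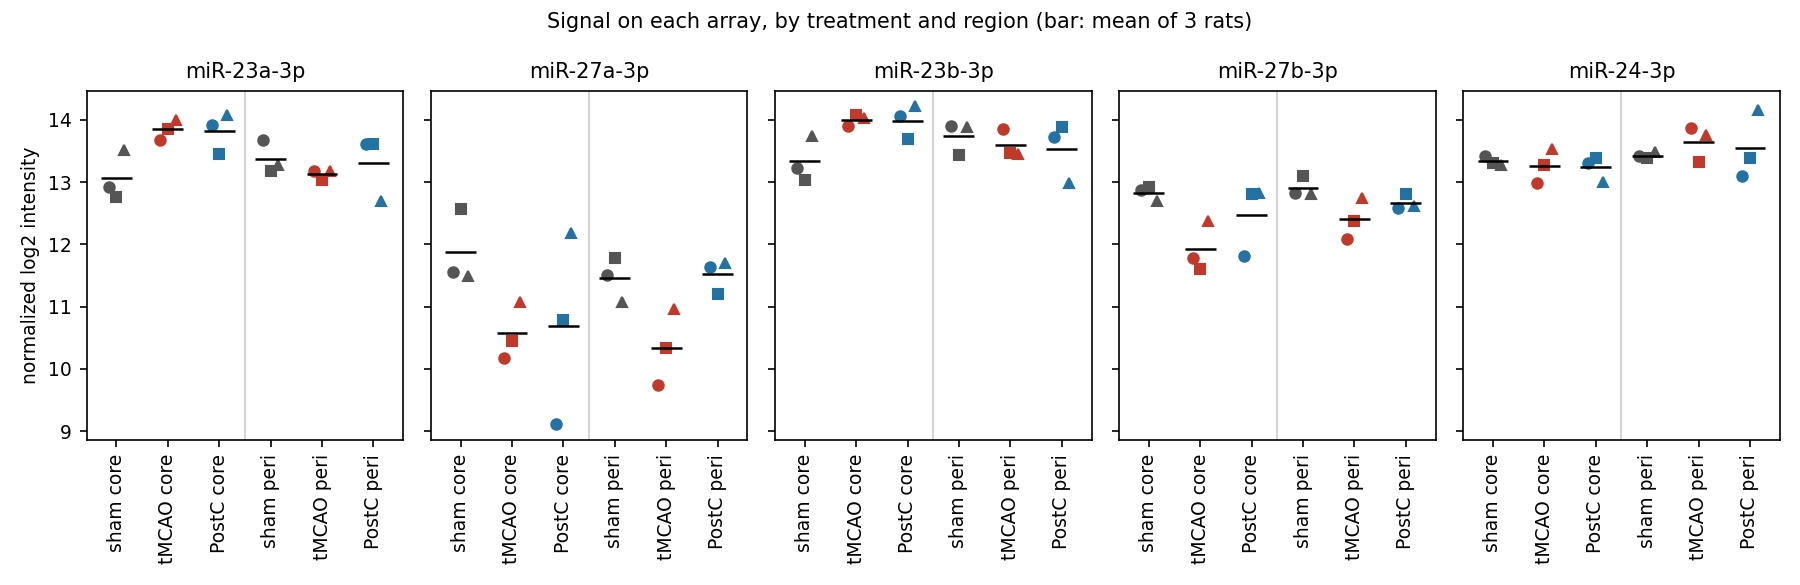
Normalized log2 intensity (y axis) of the 5 3p members on each of the 18 arrays, by treatment and region (x axis); each symbol shape is a replicate number and the bar is the mean of 3 rats. In the core the tMCAO values of miR-23a-3p and miR-23b-3p lie above the sham values, those of miR-27a-3p and miR-27b-3p lie below them, and those of miR-24-3p overlap them.

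In the peri region the miR-27 forms again had lower signals after tMCAO, and the miR-23 forms did not have higher ones. Of the 7 members, 0 passed the adjusted threshold in limma, at which 0.564% of all probes were called, and miR-27a-3p alone reached an unadjusted p under 0.05, whereas 0 members reached it in the methods' t-test. Among all probes 15.2% reached it in limma and 115 of 532 in the methods' t-test. The groups did not overlap for 2 members, miR-27a-3p and miR-27b-3p, where 31.6% of all probes did not.

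miR-27a-3p had 11.51, 11.77 and 11.08 in the sham peri region and 9.74, 10.33 and 10.96 in the tMCAO peri region. The highest tMCAO rat came close to the lowest sham rat without reaching it. The log2 fold change was -1.11 (SE 0.37, 95% interval -1.92 to -0.31, adjusted p = 0.178 in limma). miR-27b-3p gave 12.82, 13.10 and 12.81 in sham and 12.08, 12.37 and 12.74 in tMCAO, a log2 fold change of -0.51 (SE 0.26, 95% interval -1.07 to 0.04, adjusted p = 0.361 in limma).

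miR-23a-3p measured 13.67, 13.18 and 13.27 in the sham peri region and 13.17, 13.04 and 13.18 in the tMCAO peri region. These overlapped, and the log2 fold change was -0.25 (SE 0.27, 95% interval -0.84 to 0.35, adjusted p = 0.692 in limma). On the peri array of sham rat 3 the 4 spots of miR-23a-3p had an SD of 1.05 on the log2 scale, against at most 0.27 on the other arrays. In the deposited normalized table the fold change of miR-23a-3p was -0.49 (adjusted p = 0.591 in limma), and over the alternatives it ran from -0.9998 to -0.096. For miR-23b-3p the log2 fold change was -0.15 (SE 0.26, 95% interval -0.72 to 0.43, adjusted p = 0.820 in limma), and it ran from -0.86 to -0.064 over the alternatives. miR-24-3p had 13.41, 13.38 and 13.47 in sham and 13.86, 13.33 and 13.76 in tMCAO. Its log2 fold change in peri was 0.23 (SE 0.27, 95% interval -0.36 to 0.82, adjusted p = 0.700 in limma), with a sign that depended on the scaling.

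The scaling of the arrays mattered most in the peri region. With each array scaled to its median in place of cyclic loess, 3 members passed the adjusted threshold there, miR-23a-3p at -0.9998, miR-27a-3p at -2.19 and miR-27b-3p at -1.40 (adjusted p = 0.0384, 0.0218 and 0.0218 in limma), beside 128 of all 532 probes. The median of all 532 probes then stood at -0.42, compared with -0.01 after cyclic loess, so the tested probes as a set were lower on this scale. The part of that shift in each of these values was not tested.

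Averaged over both regions of each rat, the log2 fold change of tMCAO against sham was -1.21 for miR-27a-3p (SE 0.42, adjusted p = 0.0765 in limma) and -0.71 for miR-27b-3p (SE 0.23, adjusted p = 0.0693 in limma). miR-23a-3p and miR-23b-3p both stood at 0.26 (SE 0.17 each, adjusted p = 0.302 and 0.306 in limma) and miR-24-3p at 0.079 (SE 0.15, adjusted p = 0.759 in limma). With plain subtraction these 3 values turned to -0.012, -0.062 and -0.20. Among all probes 11.8% were called and 41% did not overlap, and of the members 0 were called and 3 did not overlap (miR-23a-3p, miR-27a-3p and miR-27b-3p). The 2 miR-27 forms reached an unadjusted p under 0.05 by limma, and 2 members did so by the methods' t-test, beside 31.4% of all probes in limma and 155 of 532 in the methods' t-test. Without tMCAO rat 3, the rat with the highest miR-27 values of its group, both passed the adjusted threshold, at -1.49 for miR-27a-3p (adjusted p = 0.0413 in limma) and -0.91 for miR-27b-3p (adjusted p = 0.0240 in limma), beside 96 of all 532 probes.

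**Figure D2:**
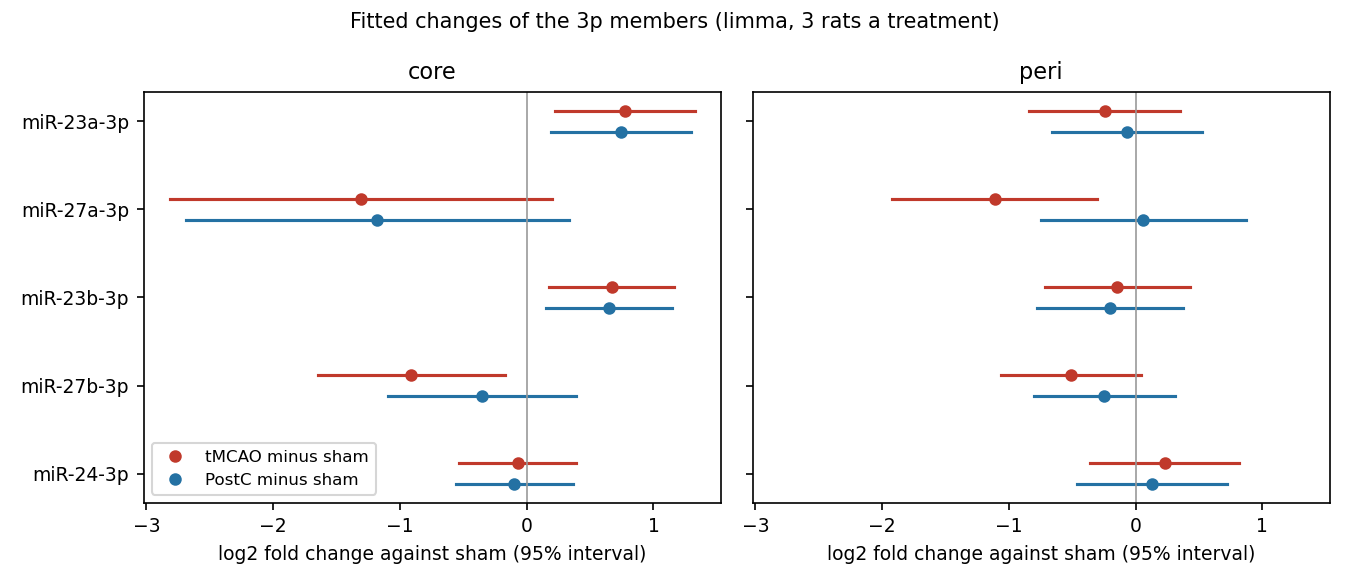
Log2 fold change against sham (x axis, with its 95% interval from limma) of the 5 3p members in core and peri, for tMCAO and PostC rats. In the core the miR-23 intervals lie above 0 in both comparisons, from 0.22 to 1.32 for miR-23a-3p after tMCAO, while the miR-27 points lie below 0, and both comparisons share the same 3 sham-operated rats.

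The 5p arms of miR-24 were dim. miR-24-1-5p was detected on 10 of the 18 arrays and miR-24-2-5p on 13. Both were detected on all 6 sham arrays and neither was well above background on any tMCAO peri array. In the core, miR-24-2-5p had 8.69, 8.24 and 8.57 in sham and 7.82, 7.97 and 8.23 in tMCAO, and the groups did not overlap, with a log2 fold change of -0.49 (SE 0.35, adjusted p = 0.409 in limma). miR-24-1-5p had 7.84, 7.68 and 7.67 in sham and 7.42, 7.57 and 7.68 in tMCAO, where the last and highest value was below the detection limit, with a fitted log2 fold change of -0.17 (SE 0.31, adjusted p = 0.755 in limma). Over the alternatives these values ran from -0.87 to -0.044 and from -0.81 to -0.10. Within the peri region, no fold between sham and tMCAO could be bounded for either arm. Of the other arms of the clusters, miR-23a-5p and miR-27b-5p were detected on 6 arrays each and miR-23b-5p and miR-27a-5p on 1 array each.

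In the PostC core, miR-23a-3p and miR-23b-3p again had higher signals than in the sham core, and the miR-27 forms were spread widely. miR-23a-3p measured 13.92, 13.45 and 14.08, and its log2 fold change against sham was 0.74 (SE 0.25, 95% interval 0.19 to 1.29, adjusted p = 0.187 in limma). miR-23b-3p measured 14.05, 13.68 and 14.22, a log2 fold change of 0.65 (SE 0.22, 95% interval 0.15 to 1.15, adjusted p = 0.208 in limma). PostC rat 2 lay within the sham range in both, so the groups overlapped. With plain subtraction the values were 0.34 and 0.19 (adjusted p = 0.750 and 0.874 in limma).

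miR-27a-3p in the PostC core ran from 9.12 to 12.18, with 10.79 between them, the widest range of any member in any group. The log2 fold change against sham was -1.18 (SE 0.68, 95% interval -2.69 to 0.33, adjusted p = 0.393 in limma). PostC rat 1 set much of it: without that rat the value was -0.39, and without PostC rat 3 it was -1.92. On that core array 198 probes were detected, and the raw signal of miR-27a-3p was 1.67 times the detection limit, its lowest on the 18 arrays. miR-27b-3p was 11.81 on the same array and 12.81 and 12.82 on the other PostC core arrays, a log2 fold change of -0.35 (SE 0.33, 95% interval -1.09 to 0.39, adjusted p = 0.587 in limma) that ran from -0.60 to -0.018 over the alternatives. miR-24-3p had 13.31, 13.39 and 13.01, with a log2 fold change of -0.097 (SE 0.21, 95% interval -0.56 to 0.37, adjusted p = 0.831 in limma), and this sign too turned with the normalization.

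For PostC against sham in core, 0 of the 7 members passed in limma, as did 0% of all probes, and 2 members, the miR-23 forms, reached an unadjusted p under 0.05 (0 in the methods' t-test), as did 16.9% of all probes in limma and 50 of 532 in the methods' t-test. The groups did not overlap for 0 members, against 22% of all probes. In the peri region 0 members were called, as were 0% of all probes, 0 reached an unadjusted p under 0.05 by limma (2.63% of all probes) or by the methods' t-test (9 of 532), and 1 member, miR-27b-3p, did not overlap, against 5.08% of all probes. In the rat means 0 members were called by limma, against 0.188% of all probes, with 0 at an unadjusted p under 0.05 (14.1% of all probes) and 1 in the methods' t-test (48 of 532 probes). These comparisons share the sham-operated rats with those of tMCAO, so the likeness of their values is no separate evidence.

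In the PostC peri region miR-27a-3p measured 11.64, 11.21 and 11.70. All 3 PostC rats lay above the 3 tMCAO rats and among the sham rats. Against tMCAO the log2 fold change was 1.17 (SE 0.37, 95% interval 0.37 to 1.98, unadjusted p = 0.00775 and adjusted p = 0.631 in limma), and miR-27a-3p stood at place 5 of the 532 probes ordered by p. It was the 1 member with an unadjusted p under 0.05 in limma, and 1 member reached it in the methods' t-test, beside 5.83% of all probes in limma and 18 of 532 in the methods' t-test. No probe was called in that comparison (0%), and miR-27a-3p was the 1 member that did not overlap, against 7.89% of all probes. miR-27b-3p measured 12.58, 12.80 and 12.61 there and overlapped the tMCAO rats.

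PostC rat 3 stood apart in the peri region. Its array gave the lowest peri values of miR-23a-3p (12.70) and miR-23b-3p (12.99) and the highest of miR-24-3p (14.16), and it detected 188 probes, the fewest of all arrays. Without this rat, limma called 59 of the 532 probes for PostC against tMCAO in peri, with 144 at an unadjusted p under 0.05, and still 0 members, of which 2 reached an unadjusted p under 0.05. For PostC against tMCAO in core, 0 members were called by limma against 2.26% of all probes, 0 did not overlap against 18.6%, and 0 reached an unadjusted p under 0.05 by limma (13.3% of all probes) or the methods' t-test (55 of 532). In the rat means of that comparison 0 members were called against 5.64%, with 0 at an unadjusted p under 0.05 by either test (18.4% of all probes in limma, 94 of 532 in the methods' t-test).

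Within each rat, core and peri could be compared directly. One sign in all 3 rats is common in these data: 43.6% of all probes had it after tMCAO and 42.1% after sham surgery. After tMCAO miR-23a-3p was higher in the core than in the peri region of every rat, by 0.50, 0.82 and 0.81 on the log2 scale. In sham-operated rats the same difference was -0.75, -0.42 and 0.24, the last from the rat with the uneven peri spots, for which the deposited table gives -0.22. For miR-23b-3p it was 0.045, 0.61 and 0.58 after tMCAO and -0.68, -0.40 and -0.13 after sham surgery, so that the rats of the 2 treatments differed in sign, although with plain subtraction tMCAO rat 3 was at -0.034. The change in core exceeded the change in peri by 1.02 for miR-23a-3p (SE 0.46, 95% interval -0.022 to 2.06, adjusted p = 0.558 in limma) and by 0.81 for miR-23b-3p (SE 0.41, 95% interval -0.10 to 1.73, adjusted p = 0.585 in limma). Both intervals include 0, and the values were 2.00 and 1.79 with median scaling (adjusted p = 0.1195 and 0.1301 in limma). For 28.9% of all probes the core-minus-peri values after tMCAO lay apart from those after sham surgery.

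For miR-27b-3p, core minus peri was -0.30, -0.76 and -0.37 after tMCAO and mixed in sign in sham-operated rats, but with median scaling the 3 tMCAO values turned to 0.041, 0.20 and 0.52. For miR-27a-3p it was 0.45, 0.13 and 0.11 after tMCAO and 0.049, 0.80 and 0.41 after sham surgery. The sign of its smallest values also depended on the processing: sham rat 1 was at -0.22 with median scaling, -0.055 in the deposited table, -0.026 with plain subtraction and -0.0037 with control spots in the loess, and tMCAO rat 3 was at -0.086 with plain subtraction. Core against peri called 0 members in sham-operated rats (0% of all probes), 0 in tMCAO rats (0.94%) and 0 in PostC rats (0%), and 0 for the difference of the changes (0%), all by limma. At an unadjusted p under 0.05 limma gave 0 members in sham, 0 in tMCAO, 1 in PostC and 0 for the difference of the changes, and the methods' t-test gave 0, 1, 0 and 2. The shares of all probes were 5.45%, 10.9%, 9.77% and 8.65% in limma, and the methods' t-test gave 49, 57, 21 and 85 of 532. With core and peri treated as independent arrays, limma gave 0, 1, 0 and 2 members at an unadjusted p under 0.05, beside 22, 54, 59 and 39 of the 532 probes, and called 0, 8, 6 and 0 probes.

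Whether cluster mates moved together was then measured directly, as the difference between the log2 values of 2 mates on the same array. Such a difference cancels a factor common to the whole array, and it stays the same between treatments if both mates change alike. In the core, miR-27a-3p minus miR-23a-3p was -1.37, -0.19 and -2.03 in sham-operated rats and -3.49, -3.40 and -2.93 after tMCAO. The 2 groups were apart, and the means differed by -2.08 (SE 0.56). An exact permutation test, run two-sided, gave p = 0.1, which is as low as 3 rats against 3 can go. In the other cluster, miR-27b-3p minus miR-23b-3p was -0.34, -0.11 and -1.06 in sham and -2.11, -2.47 and -1.67 after tMCAO, a difference of -1.58 (SE 0.37, exact permutation p = 0.1). With this normalization the log2 ratio of miR-27 to miR-23 was thus lower in each of the 3 tMCAO rats than in each of the 3 sham-operated rats, in both clusters.

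Each cluster gives 3 such pairs of mates, 6 in all, which share members and so are not independent. In the core all 6 differences were without overlap between tMCAO and sham-operated rats, where 41.4% of all pairs of tested probes were. Against the miR-23 forms, miR-24-3p differed by -0.84 (SE 0.26) against miR-23a-3p and by -0.74 (SE 0.27) against miR-23b-3p. Against the miR-27 forms it differed by 1.24 (SE 0.38) against miR-27a-3p and by 0.84 (SE 0.18) against miR-27b-3p. In the core the log2 fold change of the shared product thus lay between those of its mates in both clusters. With plain subtraction of the background the number without overlap in the core was 3, and miR-27a-3p minus miR-23a-3p was among those that then overlapped, with -1.76, -0.56 and -2.31 in sham and -3.80, -3.74 and -2.03 in tMCAO. The same held for miR-24-3p against miR-27a-3p and against miR-23b-3p.

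In the peri region 4 of the 6 differences did not overlap, against 30% of all pairs, and in the rat means 4 of 6, against 40.4%. The number in peri was 3 in the deposited table, with control spots in the loess and with the GC trend removed, and 2 with plain subtraction. Of these settings only the removal of the GC trend kept miR-27a-3p minus miR-23a-3p without overlap. The treatments differed by -0.87 for miR-27a-3p minus miR-23a-3p in peri (SE 0.44, exact permutation p = 0.1). That value was -0.67 in the deposited table and ran from -1.19 to -0.54 over the alternatives. The treatments differed by -0.37 for miR-27b-3p minus miR-23b-3p (SE 0.39, exact permutation p = 0.4), and by -0.61 to -0.081 over the alternatives. For miR-24-3p the difference was 1.34 (SE 0.47) against miR-27a-3p and 0.74 (SE 0.29) against miR-27b-3p, both without overlap. Against the miR-23 forms it was 0.47 (SE 0.19) for miR-23a-3p, without overlap, and 0.37 (SE 0.19) for miR-23b-3p, with overlap. These have the opposite sign to the core, so in peri the log2 fold change of miR-24-3p was above those of both mates in each cluster, though the difference from miR-23b-3p overlapped between the treatments (exact permutation p = 0.2). Between PostC and sham-operated rats 0 of the 6 differences were without overlap in core, peri or the rat means, against 23.4%, 4.67% and 18.3% of all pairs. For miR-27a-3p minus miR-23a-3p in the PostC core the values ran from -4.80 to -1.90 and reached into the sham range.

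**Figure D3:**
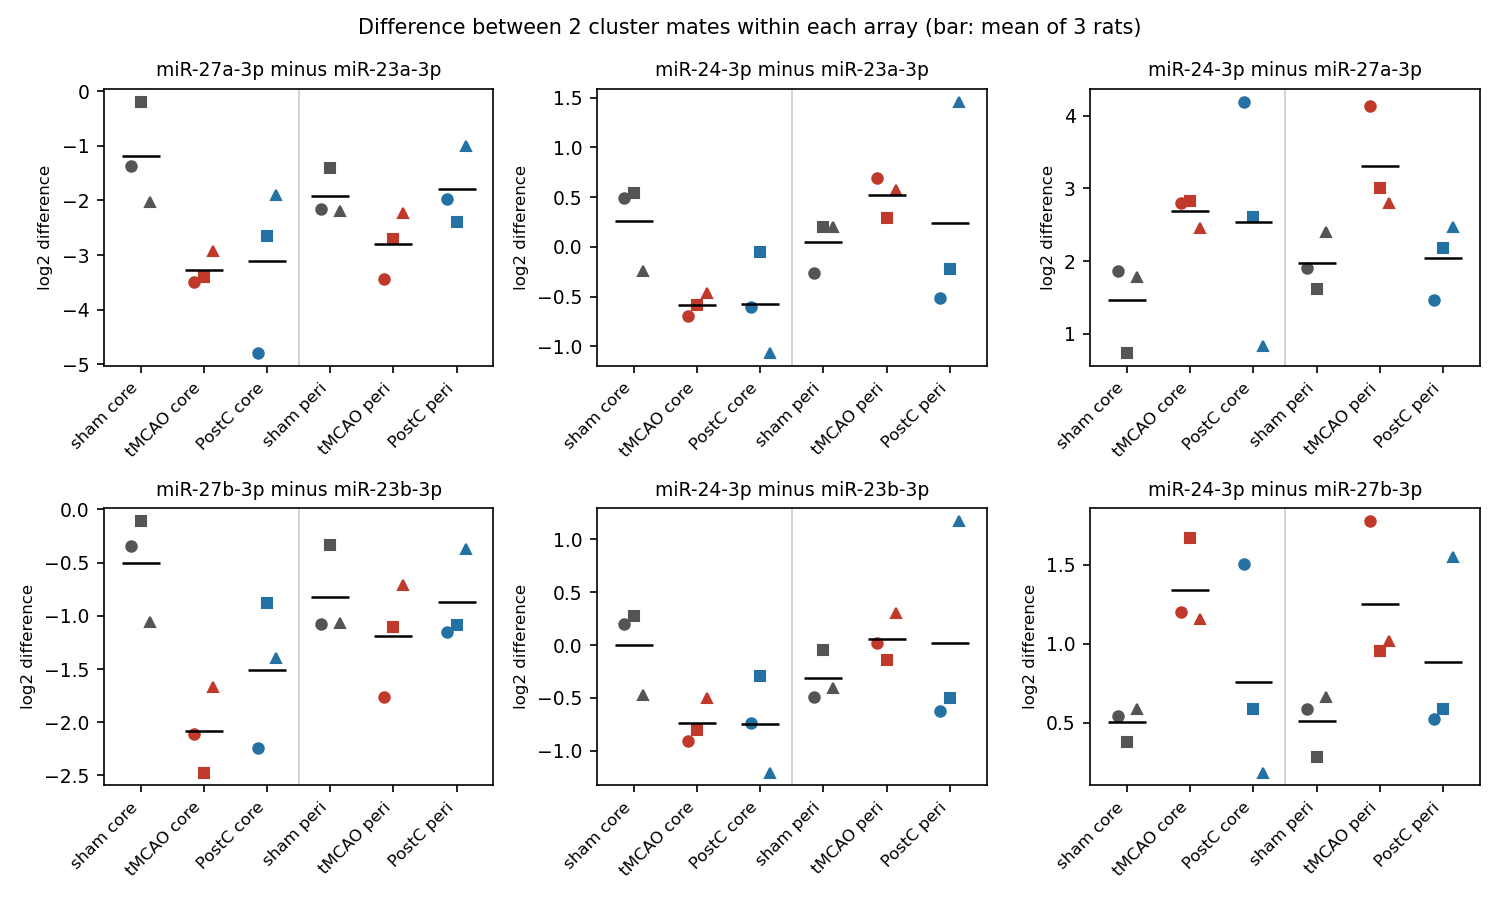
Difference of the log2 intensities of 2 cluster mates on the same array (y axis) by treatment and region (x axis), for the 3 pairs of each cluster; symbols are rats and bars are means of 3 rats. In the core the tMCAO rats lie apart from the sham-operated rats in all 6 panels, with a mean of -3.28 against -1.20 for miR-27a-3p minus miR-23a-3p, and the PostC rats overlap the sham-operated rats.

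The near copies of the 2 clusters were set against each other in the same way. miR-23b-3p minus miR-23a-3p was 0.26 ± 0.033 in the sham core and 0.16 ± 0.11 in the tMCAO core (SD, n = 3 rats), a difference of -0.10 (SE 0.064, exact permutation p = 0.1) without overlap between the groups, as for 41.4% of all pairs of probes. The highest tMCAO value was 0.223 and the lowest sham value 0.230. With quantile normalization, median scaling and control spots in the loess the 2 groups overlapped. For miR-27b-3p minus miR-27a-3p the treatments differed by 0.40 in core (SE 0.33, exact permutation p = 0.5) and by 0.60 in peri (SE 0.21, exact permutation p = 0.1), where the tMCAO rats lay above the sham rats and 30% of all pairs did not overlap.

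Across the 9 rats, 30 correlations were computed, for 10 pairs of members in each of 3 data sets (rat means, core, peri), with exact permutation tests and Benjamini-Hochberg adjustment over the 30. No pair of cluster mates passed. In the rat means their r ran from -0.68 to 0.32, with 2 of 6 above 0. With plain subtraction, quantile normalization, median scaling, the deposited table and control spots in the loess, more than 2 of the 6 were above 0. miR-23a-3p and miR-27a-3p had r = -0.67 (exact permutation p = 0.0435, adjusted 0.119) and rho = -0.75 (exact permutation p = 0.0255, adjusted 0.156). Without PostC rat 1 and sham rat 2, the farthest from the median of miR-23a-3p, r was -0.31. miR-23b-3p and miR-27b-3p had r = -0.68 (exact permutation p = 0.0301, adjusted 0.0903) and rho = -0.67 (exact permutation p = 0.0589, adjusted 0.196), and r = -0.52 without sham rats 1 and 2. The rats belong to 3 treatments, and with each treatment's mean removed r was -0.62 for the first pair and -0.54 for the second.

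In the core the r of cluster mates ran from -0.58 to 0.22 and in the peri region from -0.72 to 0.18, each with 1 of 6 above 0. Within treatments in the core, miR-23a-3p and miR-27a-3p had r = -0.00234, beside a pooled value of -0.48 (exact permutation p = 0.192, adjusted 0.384). The most negative value, -0.72 for miR-23a-3p with miR-24-3p in peri (exact permutation p = 0.0278, adjusted 0.0903), was -0.50 without PostC rat 3 and sham rat 1, and its rho was -0.40 (exact permutation p = 0.291, adjusted 0.670). With treatment means removed from the rat means, miR-24-3p had r = 0.74 with miR-27a-3p and r = 0.78 with miR-27b-3p, where the pooled values were 0.32 and 0.27.

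The signals of the near copies, unlike those of the mates, had a high r. Their targets differ at 1 base, and how far the probes share their signal was not tested. This r therefore cannot tell whether 2 separate miRNAs moved together. miR-23a-3p and miR-23b-3p had r = 0.99 in core (exact permutation p = 2.2e-05, adjusted 0.000661) and rho = 0.93 (exact permutation p = 0.00075, adjusted 0.0225), 0.87 in the rat means (adjusted 0.0236) and 0.83 in peri (adjusted 0.0298). Without the 2 rats farthest from the median these were 0.97, 0.49 and 0.57. miR-27a-3p and miR-27b-3p had r = 0.91 in the rat means (adjusted 0.0141), 0.82 in core (adjusted 0.0298) and 0.81 in peri (adjusted 0.0416). Without the 2 farthest rats the first and the second were 0.82 and 0.79. The peri value rested on tMCAO rats 1 and 2, without which r was 0.08. These rest on exact permutation tests of Pearson's r, and of the rank correlations of the near copies the 1 in core of miR-23 passed. miR-24-1-5p and miR-24-3p, arms of the same hairpin, had r = 0.88 in peri (adjusted 0.0177 by the exact permutation test) and rho = 0.72 (adjusted 0.158), with r = 0.63 without PostC rats 1 and 3, although miR-24-1-5p was detected on 4 of the 9 peri arrays.

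**Figure D4:**
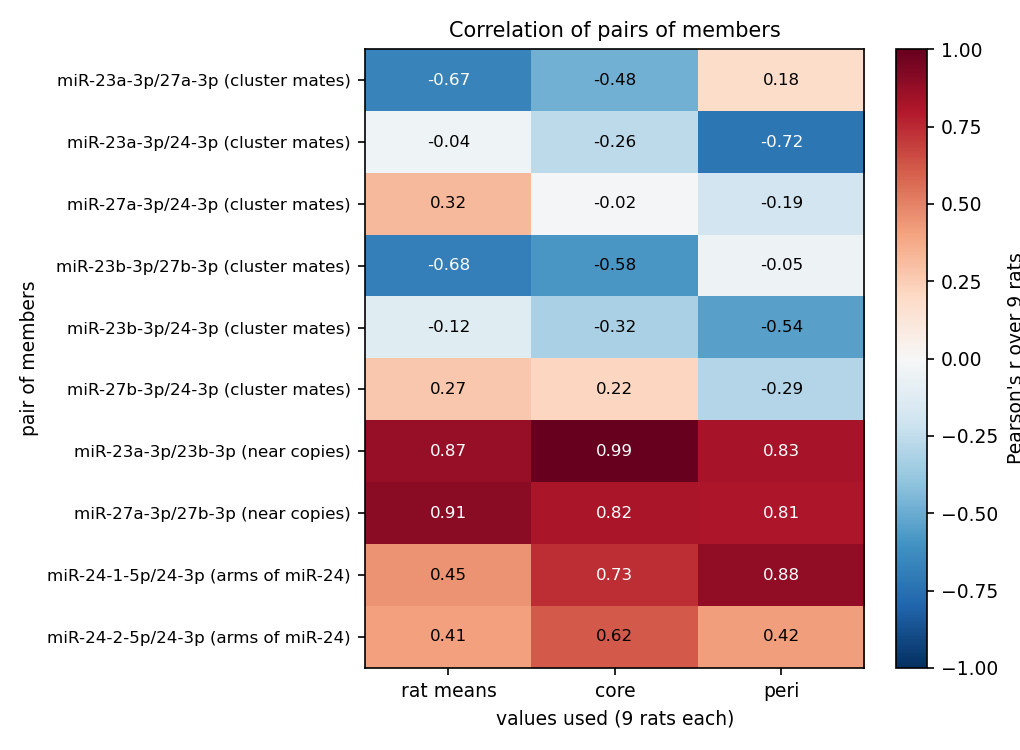
Pearson's r over 9 rats (colour and number) for 10 pairs of members (rows) in the rat means, core and peri (columns). The near copies, whose probes may share signal, run from 0.81 to 0.99, whereas the 6 pairs of cluster mates run from -0.72 to 0.32.

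Ordered by Pearson's r over the 18 arrays, the other 531 tested probes place the mates far from each other. For miR-23a-3p, miR-23b-3p came first (r = 0.93), whereas miR-27a-3p stood at place 403 (r = -0.27) and miR-24-3p at place 476 (r = -0.55). For miR-27b-3p, miR-27a-3p stood at place 7 (r = 0.79), miR-24-3p at place 260 (r = 0.11) and miR-23b-3p at place 404 (r = -0.45). The median r over all probes was 0.10 for miR-23a-3p and 0.088 for miR-27b-3p, and 90% of the probes lay between -0.71 and 0.55 for the former and between -0.76 and 0.68 for the latter.

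The probes outside the clusters most like miR-23a-3p were miR-434-3p (r = 0.87), miR-15b-5p (0.86) and miR-21-5p (0.82), and the same 3 came first for miR-23b-3p, at 0.77, 0.79 and 0.75. Those most like miR-27a-3p were miR-181c-5p (0.91), miR-181b-5p (0.89) and miR-29b-3p (0.86), and for miR-27b-3p they were miR-376a-3p (0.88), miR-181b-5p (0.86) and miR-22-5p (0.85). miR-24-3p was most like miR-1843a-5p (0.83). Next came miR-24-1-5p (0.81), the other arm of the miR-24-1 hairpin, which was detected on 10 of the 18 arrays. miR-879-3p (0.81) and miR-325-5p (0.79) followed. These are descriptions over 18 arrays that share rats and treatments.

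Markers of cell types moved beside these values. The 2 endothelial miRNAs, miR-126a-3p and its 5p arm, had a summed signal of 8342 to 15619 units in the sham core and 3747 to 7364 units in the tMCAO core, and miR-126a-3p had a log2 fold change of -0.99 there (SE 0.35, adjusted p = 0.142 in limma). The sum of the 5 leukocyte miRNAs ran from 2684 to 3476 units in the sham core and from 6353 to 11373 units in the tMCAO core. These sums include probes below the detection limit. Of 15 leukocyte probe-array pairs, 7 were detected in each of the 2 groups. Of 6 endothelial pairs, 4 were detected in the sham core and 3 in the tMCAO core. Of the 4 leukocyte miRNAs tested, miR-150-5p rose by 1.55 (SE 0.31, adjusted p = 0.0318 in limma). miR-155-5p passed too, at 1.56 (SE 0.31, adjusted p = 0.0318 in limma). It was detected on 3 of the 18 arrays, the fewest at which a probe was tested, so its fold includes values below the detection limit. The others did not pass, with miR-223-3p at 1.35 and miR-142-5p at -0.46 (adjusted p = 0.308 and 0.401 in limma), and miR-142-5p lower in tMCAO without overlap. The 2 oligodendrocyte miRNAs summed to 1936 to 12550 units in the sham core and to 309 to 686 units in the tMCAO core, and the 2 smooth muscle miRNAs overlapped, with 5847 to 9837 and 8150 to 13154 units. The 3 red blood cell miRNAs also overlapped, with 2421 to 4272 and 2967 to 4179 units. Within that list miR-486 stood at 1.91 in core (adjusted p = 0.0922 in limma, no overlap) and rose in the rat means by 1.39 (adjusted p = 0.00951 in limma), while miR-451-5p stood at -0.014 in core. The 6 neuronal miRNAs summed to 63333 to 74811 units in the sham core and 54693 to 63574 units in the tMCAO core, a sum that covers members of both signs. In core miR-137-3p stood at -2.55, miR-153-3p at -2.89 and miR-218a-5p at -1.93, none of which passed (adjusted p = 0.142, 0.104 and 0.170 in limma), and miR-128-3p at 0.34, all 4 without overlap. In the rat means 3 of the 6, miR-137-3p, miR-153-3p and miR-218a-5p, fell (adjusted p = 0.0184, 0.0452 and 0.00555 in limma). This does not describe the list as a whole, whose other members are not given here for the rat means. In the peri region the endothelial sums were 6214 to 8406 units in sham and 5256 to 6933 units in tMCAO, and the leukocyte sums 2682 to 2991 and 2800 to 4182 units. In the PostC core the leukocyte sums ran from 4893 to 7698 units and the endothelial from 4225 to 7436. The oligodendrocyte sums ran from 302 to 1426, the red blood cell from 1511 to 1792 and the neuronal from 56894 to 62228. None of these overlapped the sham core, where 22% of single probes did not overlap either. The smooth muscle sums, at 7751 to 13810 units, overlapped it. The study picked miR-150, miR-126 and miR-218 from these same arrays, as it did miR-27b-3p, so their directions are not independent evidence. The part of these cell types in the values of the clusters was not tested.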

How the data were processed

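For every array the authors deposited Cy5 intensity values (spot medians) of all 3968 spots, without background subtraction or normalization, and a table of background-subtracted, locally weighted regression normalized intensity values. From the spots, background was corrected with normexp (offset 50) on all spots, log2 values were normalized by cyclic loess with control spots at weight 0, and the 4 spots of a probe were averaged. A probe was detected above the median of an array's 612 empty spots plus 3 scaled median absolute deviations, and tested if detected on at least 3 arrays, 532 of 761. Array number and signal over background limit the precision.

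The rat is the replicate, and core and peri arrays are tied to a rat by the labels. The 3 treatments entered 1 limma fit (version 3.58.1 in R 4.3.3, lmFit then eBayes with trend), and a probe was called at an adjusted p under 0.05 (Benjamini-Hochberg), separately in core, in peri, in rat means and in core minus peri, which was taken within each rat with no block across treatments. SDs and intervals (95%) are over rats. Differences and correlations of members used exact permutation tests in Python 3.11.15 with numpy 2.4.6 and pandas 2.3.3; figures used matplotlib 3.10.9. The methods' t-test (Student) is an alternative.

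The members, lists and tests were chosen with earlier results of these data known. Named are all 7 members, the other arms of the clusters, probes with the same seed, and for each 3p member the 3 probes of highest r. Target sequences are those of the array files. Genomic positions are left out because no rat genome was used here. The labels name a miRNeasy kit and the methods Trizol for the extraction, and the labels give the organism as Rattus rattus where the probes and the title are of Rattus norvegicus.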

Additional observations from a re-analysis of the deposited data

Results flagged for a closer look

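miR-23b-3p was noted because its difference between regions pointed in opposite directions in the 2 treatments: core minus peri was 0.41 on the log2 scale in tMCAO rats (higher in core in 3 of 3 rats, and in 2 of 3 with plain subtraction, where rat 3 was at -0.034) and -0.40 in sham-operated rats (lower in core in 3 of 3 rats). Among all probes, 43.6% had one sign in all 3 tMCAO rats and 42.1% in all 3 sham-operated rats. The difference between the treatments was tested in limma and did not pass, at 0.81 (SE 0.41, adjusted p = 0.585). Over the alternatives it ran from 0.68 to 1.79, the latter with median scaling. The smallest single difference was 0.045, in tMCAO rat 1.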

How the results depend on the processing

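Of the 91 fold changes of members (7 in 13 comparisons), 43 changed sign under at least 1 of 25 alternatives, and in all 43 the 95% interval of limma includes 0. Over 21 alternatives, the changes of the miR-23 and miR-27 forms between tMCAO and sham kept their sign in core and in peri. The 12 changes of mate differences between tMCAO and sham (6 in core, 6 in peri) also kept their sign under all 13 alternatives run for them. Those of miR-27a-3p minus miR-23a-3p in core ranged from -2.49 to -1.58 and those of miR-27b-3p minus miR-23b-3p from -1.86 to -1.37. The number of mate differences without overlap in core was 6, and 3 with plain subtraction. The number of mate pairs with r above 0 in the rat means was 2, and 4 with plain subtraction, quantile normalization, median scaling, the deposited table and control spots in the loess (an alternative chosen after seeing the data). Leaving out each rat gave 2 to 4, with 4 without PostC rat 1. For tMCAO against sham, 0 members were called in the rat means. That number was 2 with median scaling (miR-27a-3p at -1.78 and miR-27b-3p at -1.10), 1 with only the 141 probes detected on all arrays (miR-27a-3p), 1 with the rat as a random block (miR-27b-3p), and 0 to 2 with each rat left out. In peri it was 3 with median scaling. Of the fold changes given above, those of tMCAO that changed sign were, in the rat means, miR-23a-3p at -0.012 and miR-23b-3p at -0.062 with plain subtraction, and miR-24-3p at -0.20 with plain subtraction, -0.19 with median scaling, -0.016 with the GC trend removed and -0.015 to 0.16 with each rat left out (below 0 without tMCAO rat 3). In core miR-24-3p stood at 0.15 with median scaling, 0.12 with control spots in the loess and -0.20 to 0.070 with each rat left out (above 0 without tMCAO rat 1), and in peri at -0.53 with median scaling. Against sham in the PostC core, miR-24-3p stood at 0.077 with control spots in the loess and -0.17 to 0.019 with each rat left out (above 0 without PostC rat 3). Rats of different treatments share only a number: between tMCAO and sham the deviations of same-numbered rats had r from -0.36 to -0.016 in the rat means, and 0 of 3 tMCAO rats matched their own number best. With the replicate block, 0 members were called in the 9 comparisons between treatments, and over all probes 43 in place of 63 in the rat means 3 in place of 18 in core and 7 in place of 3 in peri. Over all probes, leaving out each rat gave 8 (without tMCAO rat 2) to 96 (without tMCAO rat 3) calls in the rat means, and 0 by limma in core without sham rat 1 or 3 (97 and 101 at an unadjusted p under 0.05). Median scaling gave 130 in the rat means and 128 in peri, and the methods' t-test gave 23, 3 and 0 in the rat means, core and peri. For differences within the rat, fits with no replicate block (core and peri as independent arrays) also called 0 members. A chip or scan block was not run, since the files give none that holds over 1 array. The cause of these shifts was not tested.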
